A study of Mus musculus with 108 samples.

Results

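Hepcidin and the main genes of iron transport and storage were followed in mouse liver RNA across diet, strain, time of day and genotype label. The group holds 9 genes, taken by symbol from 25125 gene symbols in each of the 3 expression tables, with the transcript of the highest mean where a symbol had several. Hamp and Hamp2 encode the hepcidin peptides, and Bmp6 a signal that drives hepcidin transcription. Tfr2 encodes a hepatocyte sensor of iron-loaded transferrin, Trf transferrin itself and Tfrc the receptor that takes it up. Slc40a1 encodes ferroportin, the iron exporter, and Fth1 and Ftl1 the heavy and light chains of ferritin, the iron store. All 9 passed the filter on low values, a mean of at least 10, in all 3 tables.

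The 72 wild-type libraries came from male C57BL/6J (B6) and 129S1/SvImJ (129) mice on normal chow or a high fat and sucrose diet (D12492i, here HFD). Each of these 4 sets has 18 libraries, 3 at each of 6 zeitgeber times from ZT2 to ZT22, the hours counted from lights on. A further 18 libraries each carry the genotype labels Errg-Cre (129, HFD) and Esrrg LKO (HFD, titled as diet-induced obesity). Esrrg LKO is B6 by title, with the strain label B6S1/SvImJ. The labels name neither the promoter of the Cre nor the age of the mice, and do not state whether replicates are separate animals. If they are not, the spread behind each p-value may be technical. The series text calls the Esrrg deletion specific to hepatocytes. The 18 columns headed GFP in the Errg-Cre table carry no sample label and were not used here, so genotype was not tested. Esrrg itself was listed above 0 in all 18 Esrrg LKO libraries (7.64 to 39.4), which without a control checks no label.

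Hepcidin is a liver hormone that binds ferroportin on gut and macrophage cells and has it degraded, which lowers iron entry into blood. Hepatocytes make it in response to bone morphogenetic proteins from sinusoidal endothelium, acting through SMAD proteins, and to inflammatory signals acting through STAT3. Ferritin, transferrin receptor and ferroportin mRNAs are also controlled by iron regulatory proteins, which bind a stem and loop called the iron-responsive element. That element blocks translation when it lies in a 5′ UTR and protects the mRNA from decay when it lies in the 3′ UTR of Tfrc.

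Hamp and Hamp2 lie side by side on the minus strand of chromosome 7 (mm10), at chr7:30942369-30944029 and chr7:30922372-30924181. Their Gencode transcripts were 94.6% identical over 410 aligned bases, so reads of one can be counted for the other. The 250 bases before each start (RefSeq, GRCm38.p6; chr7:30944030-30944279 and chr7:30924182-30924431, minus strand, written 5′ to 3′) are shown because the pair did not move alike below. Capitals mark first the BMP-responsive hexamer GGCGCC of Hamp and the aligned hexamer of Hamp2, and then the STAT motif TTCNNNGAA.
Hamp: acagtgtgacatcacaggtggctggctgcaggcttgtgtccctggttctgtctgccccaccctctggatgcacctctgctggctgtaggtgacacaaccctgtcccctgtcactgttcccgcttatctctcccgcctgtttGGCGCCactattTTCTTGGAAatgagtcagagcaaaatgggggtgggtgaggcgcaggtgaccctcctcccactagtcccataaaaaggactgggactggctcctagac
Hamp2: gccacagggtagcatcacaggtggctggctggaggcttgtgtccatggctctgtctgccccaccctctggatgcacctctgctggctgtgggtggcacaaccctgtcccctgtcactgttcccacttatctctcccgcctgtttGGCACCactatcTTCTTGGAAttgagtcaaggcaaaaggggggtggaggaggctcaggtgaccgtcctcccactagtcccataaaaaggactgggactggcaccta

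The 2 promoters were 91.9% identical over 247 aligned bases. Counted from 1 at the 5′ end of the hexamer, Hamp2 carries the substitution G4A, so GGCGCC was found in Hamp at base -109 before the start and not in Hamp2. TTCNNNGAA was found in both, at -97 in Hamp and -94 in Hamp2. On either strand (each motif reads the same on both, and the 2 cannot overlap), GGCGCC was present in 9.59% and TTCNNNGAA in 7.02% of 32851 promoter windows of 250 bases. Of the 7 members with a promoter in the table, Tfrc was the only other one with either motif (GGCGCC). A match is a run of letters and not a measured site.

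Iron-responsive elements, searched as a bulged C, 5 paired bases on each side and the loop CAGTGN with N other than G, were found in 4 members and in 0.467% of 141767 Gencode transcripts (release 21). They are printed with the 6-base loop in capitals, because these members share a control that acts on mRNA and not on transcription.
Fth1, 5′ UTR, chr19:9982738-9982754, plus strand: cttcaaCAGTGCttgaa
Ftl1, 5′ UTR, chr7:45459785-45459801, minus strand: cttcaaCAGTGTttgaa
Slc40a1, 5′ UTR, chr1:45925471-45925487, minus strand: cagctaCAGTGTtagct
Tfrc, 3′ UTR, chr16:32631225-32631241, plus strand: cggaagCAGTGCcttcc
Tfrc, 3′ UTR, chr16:32631604-32631620, plus strand: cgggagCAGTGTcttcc
Tfrc, 3′ UTR, chr16:32631669-32631685, plus strand: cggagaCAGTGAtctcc
Tfrc, 3′ UTR, chr16:32631716-32631732, plus strand: cgggaaCAGTGTttccc

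The elements of Fth1 and Ftl1 carry the same stem and differ at the last loop base, while the 4 Tfrc elements lie within 1 stretch of its 3′ UTR. The search found none in Hamp, Hamp2, Trf, Tfr2 or Bmp6. Because these elements act partly on translation, RNA levels do not show ferritin or ferroportin protein.

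All levels are normalised reads per transcript, scaled by the authors so that every library of a table holds the same set of values. Per kilobase of transcript, the medians in B6 on chow ran from Trf (24770) through Hamp (2396), Fth1 (2136), Ftl1 (1620) and Slc40a1 (569) to Tfr2 (172), Hamp2 (151), Tfrc (107) and Bmp6 (7.53). Neighbours within this order, such as Hamp and Fth1 or Tfr2 and Hamp2, overlapped widely between libraries. The place of Fth1 rests on a length of 1506 bases, while its transcript searched above for iron-responsive elements has 929. In 129 on chow Ftl1 (7118 per kilobase) and Hamp (5580) followed Trf. Trf was so abundant that it took 17 distinct values in the 72 wild-type libraries, at ranks 2 to 19 of a library, so its fold changes are coarse. Hepatocyte marker genes were abundant in every set, as the liver label implies. In bulk tissue, fewer cells of a type and less RNA per cell cannot be told apart.

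Library composition moved with these sets and touches several members. For the GC slope, each gene's log2 level was taken relative to its mean over the 72 wild-type libraries. The slope is the change in that value per 10 points of transcript GC within a library. It averaged -0.43 ± 0.46 (SD, n = 18) in B6 on chow, against 0.19 ± 0.13 in B6 on HFD, 0.10 ± 0.55 in 129 on chow and 0.14 ± 0.15 in 129 on HFD. Mir6236, a transcript whose level varied widely between libraries, had medians of 223, 8292, 2570 and 1104 in the same order. In 129 on chow it split the set by time: 10 libraries at 27.7 to 3213 held all of ZT2, ZT6 and ZT10 and 1 of ZT14, and 8 at 35151 to 61431 held the other ZT14 libraries and all of ZT18 and ZT22. Member results are therefore also given under composition settings, in most cases where a call changed. In these settings the trend over GC and transcript length was taken out of each library, or Mir6236 was a covariate. Genes outside the members were not followed in these settings. In 3 wild-type libraries many genes were near 0 (B6 chow ZT14 replicate 3, 129 chow ZT22 replicate 3 and B6 HFD ZT6 replicate 1), and B6 HFD ZT22 replicate 3 carried a strong acute-phase profile. Results are said to hold without these 4 libraries, or not, where that matters.

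Hepcidin RNA fell on HFD in 129 livers for both genes, and in B6 livers for Hamp2. In 129, Hamp ranged from 1193 to 3864 on chow (median 2238) and from 468 to 2276 on HFD (median 1019). Of the 18 HFD libraries 13 lay below every chow library, although the sets overlapped at ZT2 and ZT22. The log2 difference was -1.23 ± 0.20 (SE; 0.43-fold), lower at 6 of 6 times, with an adjusted p of 1.02e-05 by limma. In B6, Hamp ranged from 287 to 2236 on chow (median 961) and from 107.5 to 3585 on HFD (median 731), and the sets overlapped at every time. The difference of -0.45 ± 0.20, lower at 4 of 6 times, did not pass the threshold of 0.05 (adjusted p = 0.0525 by limma). It passed without the 4 libraries named above (-0.67, adjusted p = 0.00289 by limma) and with the GC and length trend removed (-0.60, adjusted p = 0.0194 by limma). Single libraries also decided this call: leaving out B6 HFD ZT22 replicate 3 alone gave -0.57 (adjusted p = 0.0098 by limma).

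Hamp2 fell on HFD in both strains. In 129 it ranged from 19.6 to 152 on chow (median 72.7) and from 1.997 to 86.5 on HFD (median 10.8), and 13 of 18 HFD libraries lay below every chow library. The log2 difference was -2.52 ± 0.32 (0.17-fold), lower at 6 of 6 times (adjusted p = 2.08e-08 by limma). In B6 it ranged from 20.9 to 195 on chow (median 65.05) and from 2.86 to 62.9 on HFD (median 24.4), with 8 HFD libraries below every chow library. That difference was -1.58 ± 0.32 (0.33-fold), again lower at 6 of 6 times (adjusted p = 3.13e-05 by limma). Both Hamp2 calls, and that of Hamp in 129, were kept under all 15 alternative settings and with any single library left out.

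**Figure D1:**
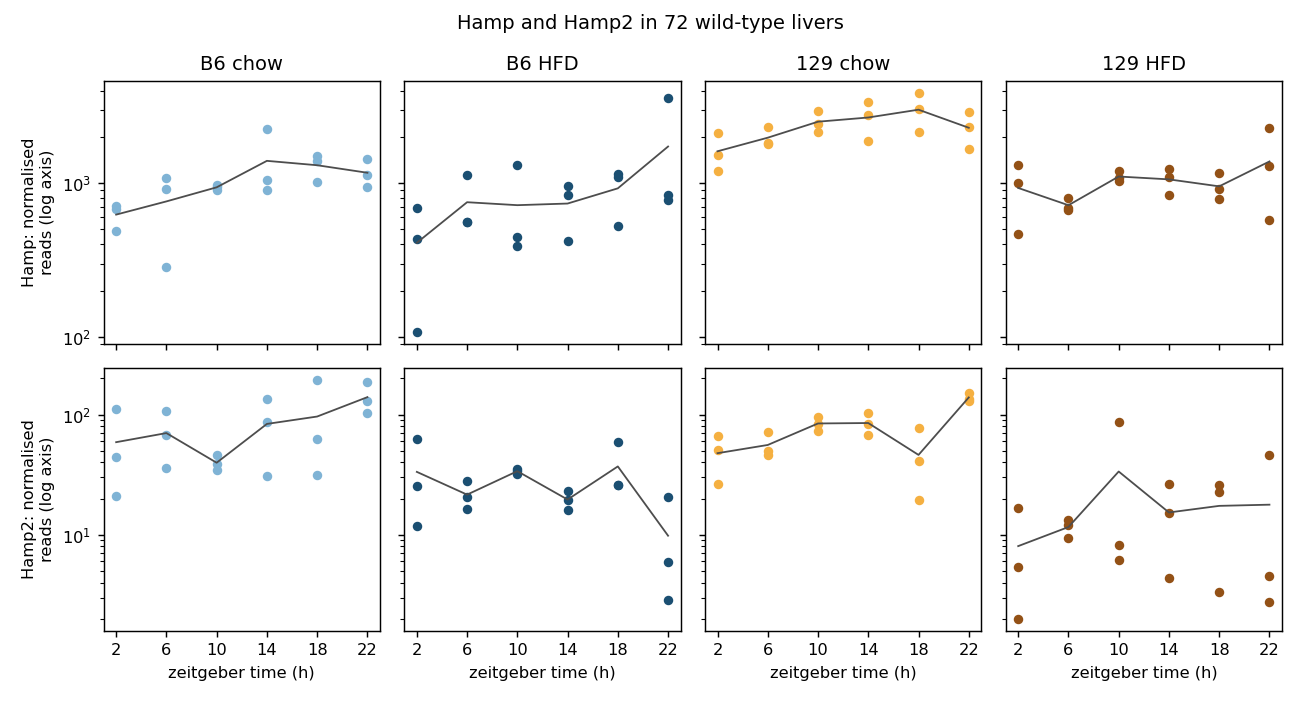
Normalised reads of Hamp (top row) and Hamp2 (bottom row) on log axes against zeitgeber time, 1 point per library and a line through the mean of the 3 libraries at each time, in the 4 wild-type sets. Hamp in 129 on chow sits between 1193 and 3864, and both genes sit lower in 129 on HFD; the lowest and highest Hamp values of B6 on HFD are 107.5 at ZT2 and 3585 at ZT22.

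On chow, 129 livers held more Hamp than B6 livers and about as much Hamp2. The Hamp difference was 1.25 ± 0.20 on the log2 scale (2.37-fold; adjusted p = 1.61e-06 by limma), higher at 6 of 6 times and with no overlap between the strains at 5 of them. It was kept under all 15 alternative settings, between 1.05 and 1.37. For Hamp2 the strain difference on chow was 0.03 (95% interval -0.61 to 0.67; adjusted p = 0.94 by limma). On HFD the Hamp difference was 0.47 ± 0.20 (adjusted p = 0.0709 by limma), and it passed without the 4 libraries named above (0.65, adjusted p = 0.00548 by limma). Hamp2 on HFD was lower in 129 (-0.91 ± 0.32, adjusted p = 0.0214 by limma), but the value was -0.02 (adjusted p = 0.975 by limma) without the libraries numbered replicate 1.

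The drop of Hamp with diet was larger in 129 than in B6 by 0.77 ± 0.29 on the log2 scale (interaction -0.77, adjusted p = 0.0332 by limma). This call was kept in 7 of 14 alternative settings and was lost without the 4 libraries named above (-0.59, adjusted p = 0.0749 by limma). For Hamp2 the interaction was -0.94 ± 0.45 (adjusted p = 0.0935 by limma). Of 18 acute-phase genes, which inflammation induces, 8 rose and 1 fell in 129 on HFD, where 10.9% of all genes rose and 7.45% fell. In B6 on HFD 8 rose and 4 fell (Crp, Fgg, Orm1 and Mt2), and 60.2% of all genes passed in one direction or the other. Their part in the hepcidin values was not tested. Among BMP target genes, Id1 and its relatives serve as readouts of the same signal as Hamp. Of 8 tested targets, which include Hamp and Hamp2, Hamp and Hamp2 were the 2 that fell in 129 on HFD and none rose, with a median of -0.38 against 0.04 over all genes. In B6 on HFD Id3 rose (0.76 ± 0.20) and Hamp2 fell, with a median of 0.16 over the list against -0.06 over all genes.

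Bmp6, the endothelial signal to hepcidin, was low and passed the test in none of the 5 contrasts. Its medians were 22.5, 20.7, 22.7 and 24.1 in B6 on chow, B6 on HFD, 129 on chow and 129 on HFD, and the sets overlapped throughout (0 to 70.3 over all libraries). The diet differences were 0.05 (95% interval -0.40 to 0.51) in B6 and 0.33 (-0.13 to 0.78) in 129, and the first was -0.49 with the GC and length trend removed (adjusted p = 0.0767 by limma). Markers of sinusoidal endothelium, its known source, rose in B6 on HFD for 7 of 12 genes and fell for 1, where 60.2% of all genes passed, and their summed level ran from 1679 to 3079 on chow and 2298 to 3577 on HFD. In 129 on HFD 2 rose and 2 fell. Whether cell makeup bears on Bmp6 was not tested.

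Counted together, 7 of 9 members passed in the B6 diet comparison (3 up, 4 down), where 60.2% of all 11287 genes tested passed. In 129, 3 of 9 passed (1 up, 2 down), against 10.9% upward and 7.45% downward of all genes. Both shares stand beside a background that differs greatly between the strains, as does library composition. With Mir6236 as a covariate the B6 count fell to 1 of 9, Hamp2 (-1.81, adjusted p = 0.0483 by limma), while the 129 calls of Hamp, Hamp2 and Trf were all kept. In B6, however, Mir6236 ran from 32.8 to 1171 on chow and from 915 to 91012 on HFD. Diet and this covariate can hardly be told apart there, so a B6 call lost in this setting decides nothing about diet.

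**Figure D2:**
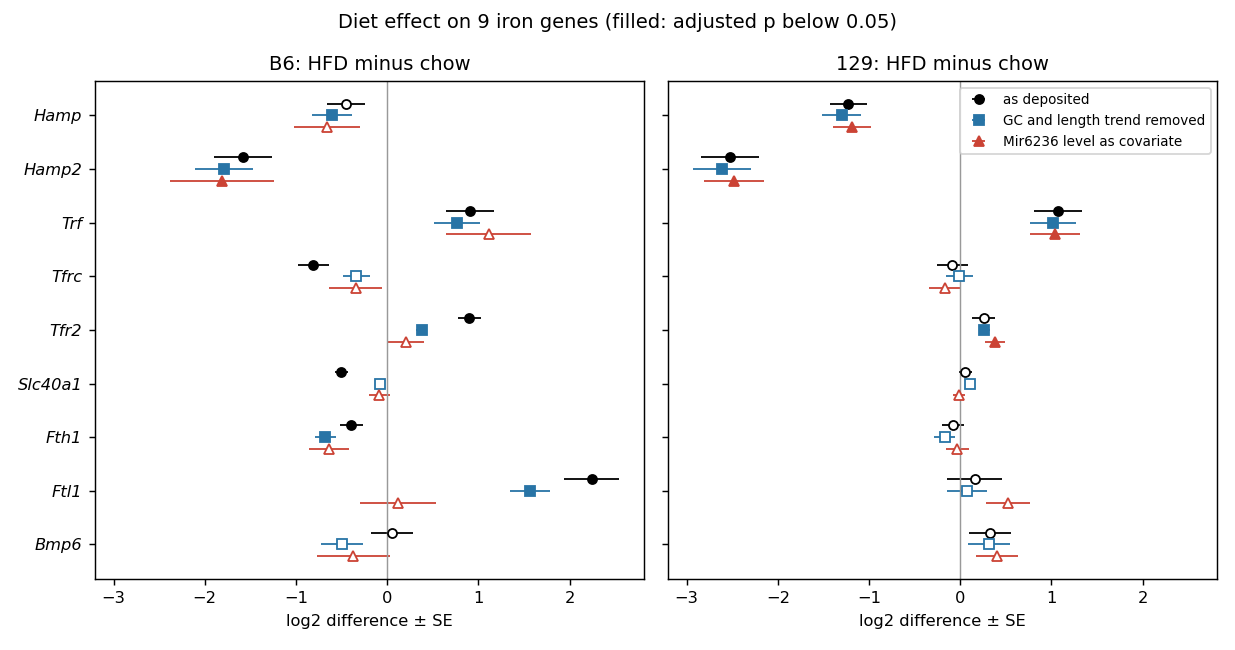
Log2 difference between HFD and chow (x axis, ± SE, mean over 6 times, 18 libraries per set) for each member in B6 (left) and 129 (right), from the values as deposited (circles), with the GC and length trend removed (squares) and with Mir6236 as a covariate (triangles). Filled symbols have an adjusted p below 0.05; Hamp, Hamp2 and Trf in 129 are filled in all 3, whereas Ftl1 in B6 moves from 2.24 to 0.12.

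Transferrin RNA was higher on HFD in both strains. Trf had medians of 57293 and 91012 in B6 on chow and HFD, where 14 of 18 HFD libraries held the value 91012. In 129 the medians were 91012 and 362217, and 11 of 18 HFD libraries held 362217. The log2 differences were 0.91 ± 0.26 in B6 (adjusted p = 0.00257 by limma) and 1.07 ± 0.26 in 129 (adjusted p = 0.0024 by limma). The sets overlapped in both strains, and a step between neighbouring ranks can be about as large as these differences. With Mir6236 as a covariate the B6 call was lost (1.11, adjusted p = 0.175 by limma). Trf was also higher in 129 than in B6, by 0.75 ± 0.26 on chow (adjusted p = 0.0151 by limma) and 0.91 ± 0.26 on HFD (adjusted p = 0.00548 by limma). The first of these did not pass without replicate 2 (adjusted p = 0.0598 by limma) or 3 (0.0911), nor the second without replicate 1 (0.117), while the differences stayed between 0.64 and 0.84 and between 0.64 and 1.19. Neither passed with Mir6236 as a covariate (0.88, adjusted p = 0.118, and 0.81, adjusted p = 0.0555 by limma).

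The transferrin receptors moved in opposite directions in B6 on HFD. Tfrc ranged from 246 to 1531 on chow (median 524) and from 148 to 690.4 on HFD (median 333), a log2 difference of -0.81 ± 0.17 (adjusted p = 6.32e-05 by limma), with 6 HFD libraries below every chow library. Tfr2 ranged from 281 to 1141 on chow (median 629) and from 842 to 1615 on HFD (median 1136), a difference of 0.90 ± 0.13 (adjusted p = 4.1e-08 by limma), with 9 HFD libraries above every chow library. Each kept its direction at 6 of 6 times. Tfr2 kept its call with the GC and length trend removed at a smaller size (0.38, adjusted p = 2.13e-06 by limma). Tfrc did not (-0.34, adjusted p = 0.057 by limma), and neither passed with Mir6236 as a covariate (-0.35 for Tfrc and 0.20 for Tfr2).

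In 129 neither receptor passed on HFD. Tfrc differed by -0.09 (95% interval -0.43 to 0.25) and Tfr2 by 0.26 (0.00 to 0.51; adjusted p = 0.16 by limma), which passed with the GC and length trend removed (0.26, adjusted p = 0.00143 by limma). On chow, Tfrc was lower in 129 than in B6 (-0.99 ± 0.17, 0.50-fold, adjusted p = 3.74e-06 by limma) at 6 of 6 times and under all 15 alternative settings, between -1.10 and -0.58. Chow livers of 129 thus held more Hamp and less Tfrc than those of B6. Tfr2 was higher in 129 on chow (0.71 ± 0.13, adjusted p = 7.37e-06 by limma), by 0.24 with the GC and length trend removed (adjusted p = 0.00176 by limma). This Tfr2 call was lost with Mir6236 as a covariate. On HFD the strain differences were -0.27 for Tfrc and 0.07 for Tfr2, and neither passed.

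Ferroportin RNA was lower on HFD in B6 and not in 129. Slc40a1 ranged from 1196 to 2954 in B6 on chow (median 1917) and from 1071 to 1735 on HFD (median 1387). The log2 difference was -0.50 ± 0.07 (adjusted p = 8.25e-08 by limma), lower at 6 of 6 times, and it was -0.07 with the GC and length trend removed (adjusted p = 0.273 by limma). This B6 difference did not pass with Mir6236 as a covariate either. In 129 the medians were 1687 on chow and 1925 on HFD, a difference of 0.06 (95% interval -0.09 to 0.20). On HFD, Slc40a1 was higher in 129 than in B6 by 0.47 ± 0.07 (1.39-fold, adjusted p = 5.59e-07 by limma). Of the 18 libraries of 129 on HFD 14 lay above every B6 library on that diet, and the call was kept under all 15 alternative settings, between 0.26 and 0.49. Of 12 markers of Kupffer cells, which recycle red-cell iron and carry ferroportin, 9 were lower in 129 on HFD and none higher, where 32.3% of all genes passed. Their summed level ran from 1341 to 6806 in B6 and 1059 to 2281 in 129, with no marker at 0 on average, and their part in the Slc40a1 value was not tested.

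**Figure D3:**
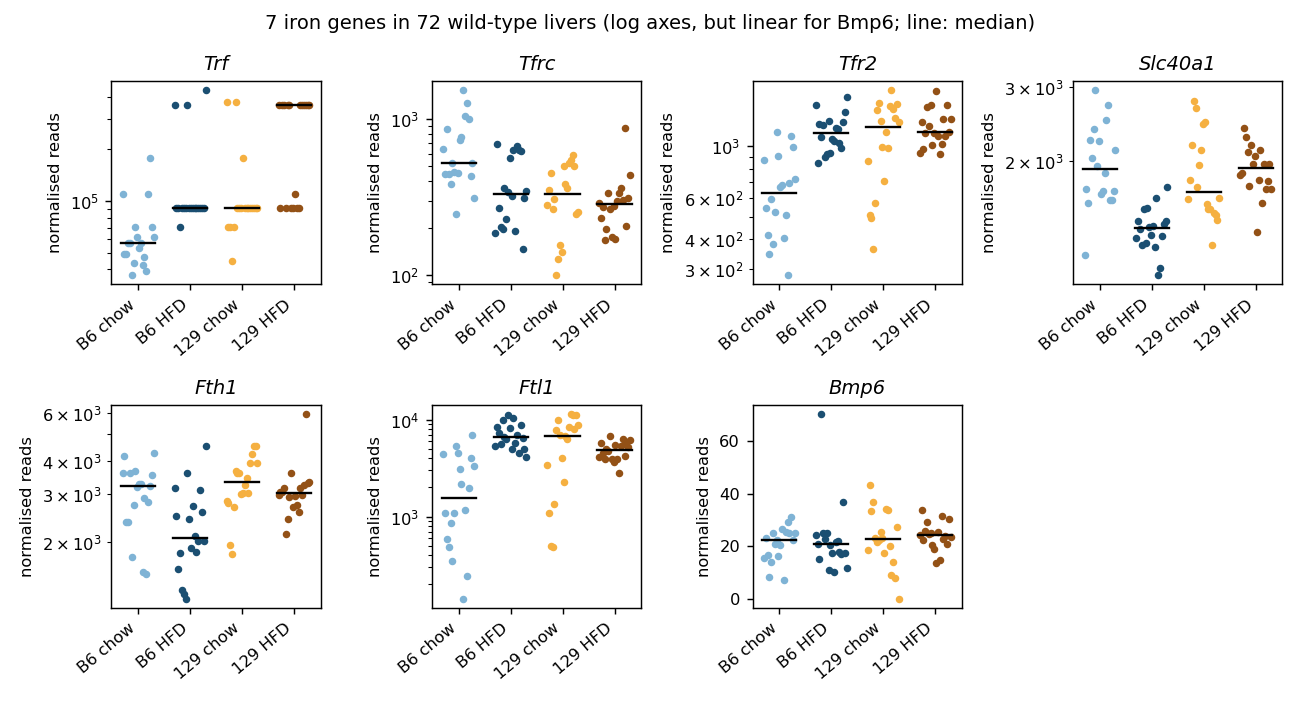
Normalised reads of Trf, Tfrc, Tfr2, Slc40a1, Fth1, Ftl1 and Bmp6 (log axes, linear for Bmp6) in the 4 wild-type sets, 1 point per library ordered by time within a set, with the median as a line. Ftl1 in chow-fed livers spreads from 141 to 6982 in B6 and from 479 to 11457 in 129, and Slc40a1 in B6 on HFD has the lowest median, 1387.

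The ferritin chains did not move together. Ftl1 ranged from 141 to 6982 in B6 on chow (median 1562) and from 4103 to 11164 on HFD (median 6587), a log2 difference of 2.24 ± 0.30 (4.73-fold, adjusted p = 1.71e-08 by limma). Fth1 fell in the same libraries, from a median of 3217 (1529 to 4264) to 2071 (1237 to 4510), a difference of -0.39 ± 0.12 (adjusted p = 0.00545 by limma). Neither B6 difference passed with Mir6236 as a covariate. In 129 neither passed: the difference was 0.16 (95% interval -0.45 to 0.77) for Ftl1, whose mean level was lower on HFD (4877 against 6118), and -0.08 (-0.33 to 0.17) for Fth1. Ftl1 was also higher in 129 than in B6 on chow (1.59 ± 0.30, adjusted p = 2.43e-05 by limma), a call that was lost with Mir6236 as a covariate. Fth1 was higher in 129 on HFD (0.49 ± 0.12, adjusted p = 0.0015 by limma), a call that was lost without replicate 1 (adjusted p = 0.0853 by limma).

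Ftl1 moved with the composition of the library. Its transcript is 58.1% GC, above 90.9% of the genes tested. Across the 72 libraries its log2 level had a Pearson correlation of 0.96 with the GC slope, and within sets the correlation was 0.99 in B6 on chow, 0.29 in B6 on HFD, 0.99 in 129 on chow and 0.78 in 129 on HFD. Tfr2, at 57.7% GC, had 0.95 over all libraries. Hamp, at 50.5% GC, had 0.15 over all libraries, although 0.76 within 129 on chow. Level and slope come from the same libraries, so these are descriptions. The B6 diet difference of Ftl1 was 1.56 with the GC and length trend removed (adjusted p = 5.57e-08 by limma) and 0.12 with Mir6236 as a covariate (adjusted p = 0.92 by limma). Diet and composition cannot be told apart in B6 for this gene.

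**Figure D4:**
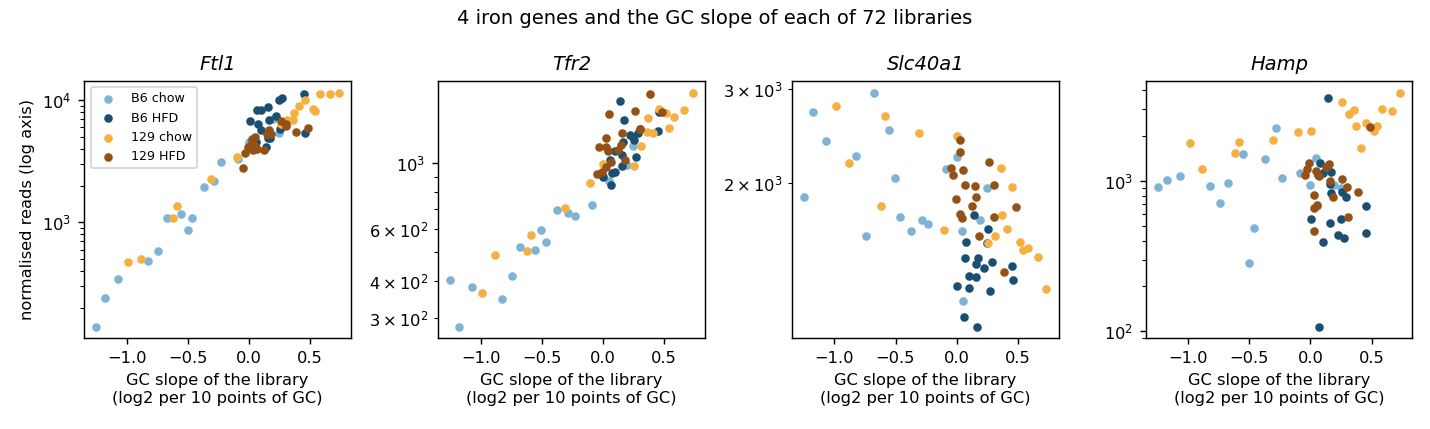
Normalised reads (log axis) of Ftl1, Tfr2, Slc40a1 and Hamp against the GC slope of the same library (log2 per 10 points of GC), 1 point per wild-type library, coloured by set. Ftl1 and Tfr2 climb along one line across all 4 sets (correlations of 0.96 and 0.95), which spans slopes from -1.25 to 0.74; Hamp shows no such line (0.15).

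The genes most like each member were found by the Pearson correlation of log2 levels over the 72 libraries, out of 11278 others, which share library composition with them. Ftl1 was most like Cox4i1 (r = 0.99), a subunit of cytochrome oxidase, with Cpn1 and Stard10 next, at 56.2% to 63.2% GC. Tfr2 was most like Eef2 (0.96), a translation factor, then Mst1 and Col18a1. Tfrc was most like Dnaja1 (0.81), a heat-shock cochaperone, and Chordc1 (0.74), an HSP90 partner, followed by Picalm (0.74). Hamp was most like Hrg (0.71), a plasma glycoprotein of hepatocytes, then Fam120a and Ppm1g. Hamp2 was most like Scd1 (0.72), the stearoyl-CoA desaturase, followed by Papss2 and Cyp2c55. Trf was most like Apon (0.74), Arf1 and C1rl, and Slc40a1 like Eps15 (0.76), Samd8 and 1810013L24Rik. Fth1 was most like Hdlbp (0.84), Rab7 and Gnb1, and Bmp6 like Tmem223 (0.74), Nup107 and Glt28d2. Hamp and Hamp2 had a correlation of 0.23 with each other over the libraries, and -0.12 within groups.

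Across strain on chow 5 of 9 members passed (4 up, 1 down) where 52.9% of all genes did, and on HFD 4 of 9 (3 up, 1 down) against 32.3%. For the diet by strain interaction 5 of 9 passed (2 up, 3 down), against 34.4% of all genes: Hamp, Tfr2 and Ftl1 moved less upward or more downward in 129, and Tfrc and Slc40a1 the reverse. No interaction of a member passed with Mir6236 as a covariate, and 2 did with the GC and length trend removed, Ftl1 (-1.49) and Fth1 (0.51, adjusted p = 0.0222 by limma).

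The wider iron pathways are given by lists, some of which include members reported above. List genes outside the members were not followed with the GC and length trend removed or with Mir6236 as a covariate. The list counts stand beside 60.2% of all genes passing in the B6 diet comparison, and 10.9% rising and 7.45% falling in that of 129. Of 16 tested genes that control hepcidin through BMP and SMAD, Tfr2 and Bmp6 among them, 4 rose and 6 fell in B6 on HFD. In 129, 2 rose and 1 fell. Tmprss6, a protease that restrains hepcidin, rose in B6 from 634 ± 423 to 1228 ± 223 (log2 difference 1.26 ± 0.20, adjusted p = 2.8e-07 by limma). In 129 on HFD Hjv, the BMP coreceptor hemojuvelin, rose by 0.61 ± 0.12 on the log2 scale, and Hfe, the hemochromatosis protein, fell by 0.48 ± 0.06 on that scale. Hfe was also lower in 129 than in B6 on HFD (137 ± 19.3 against 286 ± 50.3, log2 difference -1.05 ± 0.06, adjusted p = 2.1e-20 by limma). Fgl1, a liver protein that restrains hepcidin by binding BMP6, was lower in 129 on chow (460.1 ± 177 against 1920.1 ± 957, log2 difference -1.99 ± 0.27).

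Trf, Tfr2, Tfrc and Slc40a1 are among 13 tested genes of iron uptake and release, and all passed in B6 as given above. Of the 13, 5 rose and 4 fell in B6 on HFD, and 3 rose and none fell in 129. Those 3 were Trf, the ferrireductase Steap4 (0.85 ± 0.18) and Slc39a14 (0.56 ± 0.12), the importer of iron that is not bound to transferrin. Of 13 genes that clear heme and hemoglobin, 5 rose and 1 fell in B6, and 4 rose in 129. Haptoglobin, encoded by Hp, rose in both strains (1.84 ± 0.24 in B6 and 1.21 ± 0.24 in 129). In 129 Hmox1, the enzyme that opens the heme ring, rose from 36.9 ± 16.8 to 62.3 ± 26.0 (adjusted p = 0.0035 by limma). Kupffer cell markers moved with it in 129 on HFD, 7 of 12 up and none down with a median of 0.50, among them Cd163, which is also on the heme list, and their part was not tested. Of 12 genes of mitochondrial iron and iron-sulfur clusters, 4 rose and 5 fell in B6, and 2 rose and 2 fell in 129. Slc25a37, mitoferrin 1, fell in both strains, with log2 differences of -1.298 ± 0.08 in B6 and -0.99 ± 0.08 in 129. The 4 iron-sensing proteins gave 1 call with diet, Aco1 in B6 (0.22 ± 0.06).

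A 24 h cosine passed for 5 of 9 members in 129 on chow, where 47.8% of all genes passed, and for none of 9 in the other sets. There 6.16% of all genes passed in B6 on chow, 4.08% in B6 on HFD, 7.04% in 129 on HFD, 17.9% in Errg-Cre and 6.09% in Esrrg LKO. At an unadjusted p under 0.05, limma gave 2 members in B6 on chow (Hamp and Tfrc), 0 in B6 on HFD, 1 in 129 on HFD (Trf), 2 in Errg-Cre (Tfrc and Ftl1) and 1 in Esrrg LKO (Tfr2). The shares of all genes above are for adjusted p. None is given at the unadjusted threshold, so these counts have no background and are no result about the members. In 129 on chow Tfrc (amplitude 0.76 on the log2 scale), Tfr2 (0.55) and Ftl1 (1.32) peaked at ZT19.4, ZT17.0 and ZT16.8, while Slc40a1 (0.36) and Bmp6 (0.84) peaked at ZT7.54 and ZT8.61. These phases fall in the late and early parts of the day into which Mir6236 split the set. Ftl1 was 479 to 9912 in the 10 libraries low in Mir6236 and 6357 to 11457 in the 8 high ones. Slc40a1 was 1628 to 2784 and 1263 to 1637. Time and this split cannot be told apart in 129 on chow for these genes, and with Mir6236 as a covariate Ftl1, Tfr2, Slc40a1 and Bmp6 no longer passed.

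Tfrc still passed in 129 on chow with Mir6236 as a covariate (amplitude 1.31, adjusted p = 0.000168 by limma). It also passed with the GC and length trend removed (1.08, adjusted p = 1.64e-06 by limma). Neither fit can separate time from the Mir6236 split, because the split follows the time of day in this set. Without replicate 1 Tfrc no longer passed (0.72, adjusted p = 0.0638 by limma). Its mean was 141 at ZT10 and 554.5 at ZT18 (SD 35.5, n = 3). In B6 on chow the same times gave 386 ± 121 and 1104 ± 141, and the amplitude of 0.57, with a peak at ZT17.1, did not pass (adjusted p = 0.14 by limma). It passed there with the GC and length trend removed (0.59, adjusted p = 0.034 by limma) and with Mir6236 as a covariate (0.63, adjusted p = 0.0487 by limma). The rhythm of Tfrc did not differ between the strains on chow beyond the threshold (adjusted p = 0.441 by limma). Hamp had its highest mean at ZT14 in B6 and at ZT18 in 129 on chow, with amplitudes of 0.59 (adjusted p = 0.164 by limma) and 0.38 (adjusted p = 0.272 by limma).

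Of the tests of rhythm change, strain on chow called 1 of 9 members, Bmp6 (1.19, adjusted p = 0.0328 by limma), against 13.1% of all genes. The others called none: diet in B6 (0.0532% of all genes), diet in 129 (1.26%) and strain on HFD (0.0443%). At an unadjusted p under 0.05, limma gave 3 members for diet in 129 (Bmp6, Ftl1 and Tfr2) and none for the other 2, again with no share of all genes at that threshold. Bmp6 in 129 on chow included a value of 0 at ZT22 replicate 3, and without that library alone the rhythm there no longer passed (amplitude 0.44, adjusted p = 0.106 by limma), nor did the change with strain (0.79, adjusted p = 0.0627 by limma). Leaving out all 4 libraries named above gave 0.44 (adjusted p = 0.0351 by limma) and 0.83 (adjusted p = 0.015 by limma).

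In the Errg-Cre and Esrrg LKO sets the members are described within their own tables. Hamp ranged from 1.10 to 5702 in Errg-Cre (median 2152) and from 10.12 to 1744 in Esrrg LKO (median 689). Hamp2 had medians of 18.24 and 35.4, Tfr2 of 2223 and 1765, Ftl1 of 9285 and 8149, and Bmp6 of 37.4 and 22.6. In each set 1 library lay far below the others in Hamp, and in both it was the highest in Tfrc.

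The Errg-Cre library at ZT22 replicate 1 held 1.10 of Hamp, where the other 17 held 953 to 5702. Hamp2 was 0.17 (others 4.93 to 208), Bmp6 15.1 (others 28.1 to 60.6) and the BMP targets Id1, Id3, Smad6, Smad7 and Atoh8 were each the lowest of the set. Tfrc was 1992 (others 218 to 781), and Slc11a2, an iron importer, was 622 (others 203 to 469). Trf was the highest of the set (276749, others 79827 to 165998), while Slc40a1, Fth1 and Ftl1 lay inside the range of the other libraries. Hba-a1, a hemoglobin chain of red cells, was the highest of the set (689, others 63.9 to 239), as was the summed level of 10 erythroid markers (6642, others 1271 to 2461). The Kupffer markers Cd163 (331, others 115 to 283) and Clec4f (767, others 312 to 625) and the summed stellate cell markers (2835, others 1617 to 2790) were also the highest of the set. Summed over their whole list, Kupffer markers were second highest (3334, others 1257 to 3583). Lcn2 (493, median of the others 31.3) and Fgl1 (9558, median of the others 753) were second highest, and Saa1 was 1574 (median of the others 418). The part of other cells or of the acute phase in these values was not tested. Without this library the 24 h cosine of Tfrc in Errg-Cre passed (amplitude 0.51, adjusted p = 0.026 by limma), against 0.65 (adjusted p = 0.0683 by limma) with it.

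The Esrrg LKO library at ZT22 replicate 2 repeated part of this pattern. Its Hamp was 10.12 (others 258 to 1744), Hamp2 3.299 (others 2.93 to 132), Tfrc 1362 (others 143 to 588) and Slc11a2 480 (others 140 to 326). Slc40a1 was the lowest of the set (828, others 960 to 3114), as were Id3 and Atoh8, while Bmp6 (20.3) and Id1 (13.0) lay inside the range. Summed erythroid markers were second highest (3468). The highest Slc40a1, 3114 at ZT14 replicate 1 against 828 to 1529 in the others, came with Hmox1 at 1752 (others 89.0 to 245), erythroid markers summing to 25963 (others 689 to 3468) and Kupffer markers summing to 20637 (others 2369 to 5651). Single Kupffer markers went against that sum, with Clec4f the lowest of the set (368, others 389 to 942) and Cd163 at 104 (others 19.2 to 335). Recruited macrophage markers (3340, others 459 to 2365) and neutrophil markers (928, others 8.25 to 132) also summed to the highest of the set. In that library Hamp was 673, near the median.

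**Figure D5:**
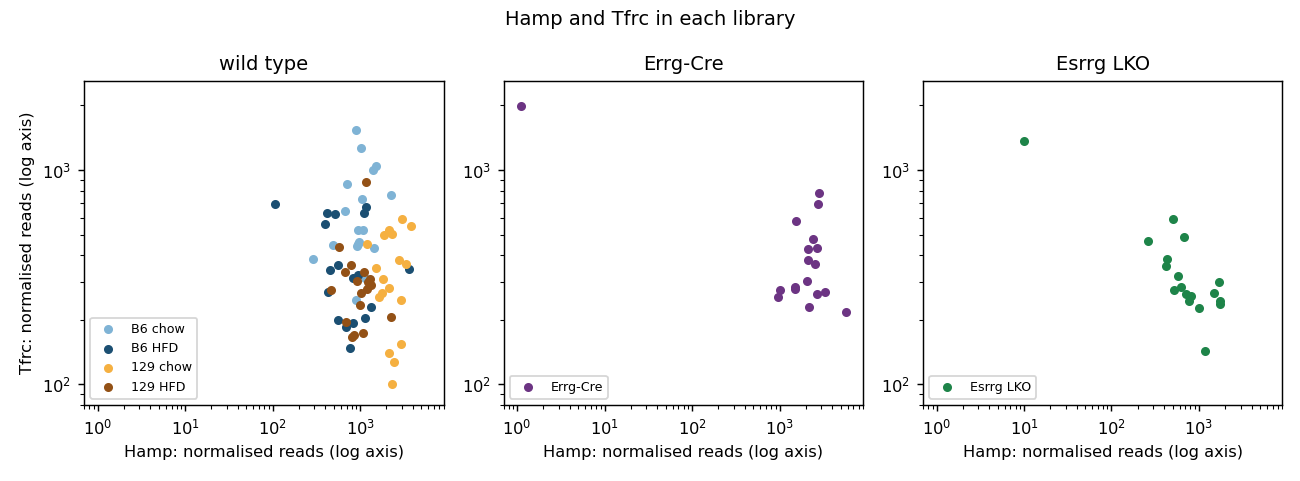
Tfrc against Hamp (normalised reads, both axes log) in the 72 wild-type, 18 Errg-Cre and 18 Esrrg LKO libraries, 1 point per library; levels are not comparable between panels. The points at Hamp 1.10 and Tfrc 1992, and at 10.12 and 1362, stand apart from the other 17 libraries of each set.

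Among wild-type livers B6 HFD ZT2 replicate 2 shared part of this, with the lowest Hamp of its set (107.5, others 392 to 3585) and the highest Tfrc (690.4, others 148 to 673). Its Hamp2 (25.4) and Slc11a2 (219) lay inside the range of the other libraries. Its Tfr2 was the lowest of the set (842, others 897 to 1615). By contrast, Tfr2 was second highest in Errg-Cre ZT22 replicate 1 (3032) and in Esrrg LKO ZT22 replicate 2 (2041). B6 HFD ZT22 replicate 3 held the highest Hamp of B6 on HFD (3585, others 107.5 to 1318) and the highest Tfr2 (1615, others 842 to 1487), with the lowest Hamp2 (2.86, others 5.94 to 62.9). There the acute-phase gene Saa1 was 110328 (others 91.1 to 9658), Lcn2 10880.0 (others 4.52 to 202) and summed neutrophil markers 19119 (others 1.12 to 14.31). Fth1 (4510.0), Slc40a1 (1735) and Slc39a14 (4056) were also the highest of the set. The highest Hamp of Errg-Cre, 5702 at ZT14 replicate 2, came with the highest Saa1 of that set, 51281. In B6 and 129 on chow, 129 on HFD and Esrrg LKO, the highest Hamp and the highest acute-phase sum fell in different libraries.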

How the data were processed

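RNA-seq of total liver RNA gave 3 tables. The authors deposited quantile-normalised read numbers per RefSeq transcript, a signal with no raw depth, so every library of a table holds the same sorted values and counting error is unknown. STAR, HOMER and mm10 are named in the submitters' processing notes, with no settings. Libraries from 129 mice were thus read against a B6 genome. In the file with Errg-Cre, 18 columns headed GFP match no labelled sample and were not used. The Esrrg LKO columns are headed ErrgCre and were matched by the table each sample names, time and number. Levels were not compared between tables.

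Tests used limma 3.58.1 (R 4.3.3) on log2(value + 1), on which folds of low genes are understated. Genes with a mean of at least 10 entered, with 1 mean per set and time, a trend in the variance and Benjamini-Hochberg adjustment over all genes of a table (threshold 0.05). Contrasts average 6 times. Rhythms are 24 h cosines. The scripts were tested on simulated data: of 67 genes changed by 1 on the log2 scale, 92.5% were called for diet in B6 and 73.1% for the interaction among 11287, and at 0.5 on that scale 53.7% and 31.3%. The simulated noise was independent between genes, without the shared library composition of the real data, so these shares do not cover it. Alternatives changed the filter, the pseudocount, the libraries, the block and the composition terms. Members, lists and tests were chosen with earlier results of these data known. Named were all 9 members, up to 4 leading genes of each iron list and contrast (with others whose role a sentence needs) and the 3 genes most correlated with each member.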

Additional observations from a re-analysis of the deposited data

Results flagged for a closer look

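The response to diet differed between the strains for 5 members by the interaction term (limma, n = 3 libraries in each of 24 groups). It was -0.77 for Hamp (adjusted p = 0.0332), -0.64 for Tfr2 (adjusted p = 0.0052) and -2.08 for Ftl1 (adjusted p = 0.000318), the diet effect in 129 minus that in B6 on the log2 scale. It was 0.72 for Tfrc (adjusted p = 0.018) and 0.56 for Slc40a1 (adjusted p = 8.3e-05). None of the 5 passed with Mir6236 as a covariate, and only Ftl1 of them passed with the GC and length trend removed. For Hamp, leaving out any of 6 single libraries also ended the call (adjusted p = 0.0525 to 0.0553 by limma). The 24 h rhythm of Bmp6 differed between the strains on chow by 1.19 on the log2 scale (adjusted p = 0.0328). Without 129 chow ZT22 replicate 3, where Bmp6 was listed at 0, it was 0.79 (adjusted p = 0.0627), and 3 other single libraries left out also ended this call (adjusted p = 0.0504 to 0.0595).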

How the results depend on the processing

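Over 1945 recomputed values, 1843 kept their direction and their side of the threshold, 57 lost the call, 21 gained it and 24 changed sign. Of those that changed sign, 2 had passed before, the interactions of Ftl1 (0.40) and Tfr2 (0.18) with Mir6236 as a covariate, and 1 passed after, Slc40a1 for strain on chow with the GC and length trend removed (0.26). The other sign changes passed on neither side. They were, with the GC and length trend removed, Bmp6 for diet in B6 (-0.49) and Fth1 (-0.0065) and Hamp2 (-0.020) for strain on chow. With Mir6236 as a covariate they were Bmp6 for diet in B6 (-0.37), Slc40a1 for diet in 129 (-0.016), Slc40a1 (0.19) and Hamp2 (-0.12) for strain on chow, Ftl1 for strain on HFD (0.57) and Trf for the interaction (-0.076). Without the 4 libraries set apart they were Bmp6 for diet in B6 (-0.059) and for strain on chow (0.054), the latter also with a pseudocount of 10 (0.033). Leaving out one replicate number or one library gave ranges across 0 of -0.22 to 0.30 for Bmp6 and diet in B6, -0.0049 to 0.34 for Ftl1 and -0.40 to 0.11 for Tfrc with diet in 129, -0.068 to 0.18 for Hamp2 and -0.26 to 0.14 for Bmp6 with strain on chow, -0.051 to 0.46 for Bmp6 with strain on HFD and -0.13 to 0.36 for Trf and the interaction. Of 8748 values with a single library left out, 13 changed sign, all of Bmp6 for diet in B6 or for strain on chow, or of Hamp2 for strain on chow. With that covariate the calls fell to 1 of 9 for diet in B6, 2 for strain on chow, 0 for the interaction and 1 for the rhythm in 129 on chow, and rose to 1 for the rhythm in B6 on chow. With the GC and length trend removed they were 2 for the interaction, 1 for the rhythm in B6 on chow and 3 in 129 on chow. The cause was not tested.

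The call on the change of rhythm with strain on chow fell from 1 to 0 with no filter on low values, with a mean of at least 50 (which leaves out Bmp6), with only the libraries compared, and with Mir6236 as a covariate. Leaving out one replicate number or one library gave 1 to 6 calls for strain on HFD, 3 to 6 for the interaction, 2 to 5 for the rhythm in 129 on chow, 0 to 1 in 129 on HFD, 0 to 3 for the change of rhythm with strain on chow and 0 to 2 for the rhythm in Errg-Cre. The trend removal in the Errg-Cre and Esrrg LKO tables was chosen after seeing the data.

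Libraries with the same replicate number did not deviate together (mean correlation 0.0055, from -0.47 to 0.67, over 0.1 in 11 of 72 pairs), so the numbers do not pair them. With the replicate block 8, 3, 5, 4 and 5 of 9 members passed in the 5 contrasts (diet in B6 and in 129, strain on chow and on HFD, interaction), with Hamp for diet in B6 at -0.45 (adjusted p = 0.0495 by limma). Depth is unknown, so precision at low levels, such as those of Bmp6 and Hamp2, rests on the spread between libraries alone.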
